A study of Mus musculus with 12 samples.

Results

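The regions described here held a called peak of the glucocorticoid receptor (GR) on DNA after dexamethasone (Dex). They held none in the libraries where tumour necrosis factor (TNF) had been given before Dex. A missing call does not show that GR was absent. Peaks of 11 deposited lists were merged wherever they shared at least 1 bp, which gave 47493 regions. A region belongs to the set when at least 2 of 3 DEX libraries and 0 of 3 TNFDEX libraries held a peak there, whatever the other libraries held. The set was thus selected on the peak calls of the DEX and TNFDEX libraries, and what those calls and their levels show is given as a description. This left 399 regions, which are 0.84% of all regions and 4.3% of the 9286 regions called in at least 2 DEX libraries. The other 8887 of those, called in at least 1 TNFDEX library, are named the other Dex regions below. The opposite pattern, at least 2 TNFDEX and 0 DEX libraries, held 1531 regions, which are 3.22% of all regions and 13.4% of the 11395 regions called in at least 2 TNFDEX libraries.

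All libraries came from BWTG3, a mouse hepatoma cell line, by chromatin immunoprecipitation with a GR antibody and sequencing, after 24 h without serum. The groups were TNFDEX (1000 U/ml TNF and, 1 h later, 1 µM Dex, 3 libraries), DEX (1 µM Dex, 3 libraries), TNF (1000 U/ml TNF, 2 libraries) and NI (3 libraries, whose titles name neither agent). Stimulation of the TNFDEX, DEX and TNF cells lasted 3 h in all, and the labels name no genetic change. Each library was compared by the authors with 1 shared input. Binding to DNA does not measure expression, so the hepatocyte identity of the line could not be checked by its marker genes.

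GR is a nuclear receptor that stays largely in the cytoplasm until a glucocorticoid binds it, and then enters the nucleus. It contacts DNA directly at glucocorticoid response elements, which are inverted repeats of a hexamer with a short spacer, and can also be held at DNA by other proteins such as the AP-1 factors. TNF acts through NF-kB and MAP kinases, and the series asks how it changes GR binding in glucocorticoid resistance.

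Levels are the normalized tag counts that the authors gave each peak, scaled to 20000000 tags per library. Without a call there is no level in the lists, so the level of an uncalled region is unknown and not 0. Libraries held 39228805 to 51141996 tags, and the 3 TNFDEX libraries were the deepest. TNFDEX lists held 22590, 8641 and 14043 peaks and DEX lists 10480, 13021 and 12955. The lists also fell into 2 kinds that cut across the groups. TNFDEX 2 and 3, DEX 3, TNF 2 and NI 3 held 2 mitochondrial peaks, with the highest at 36247 to 54519 normalized tags. The other 6 libraries held 1 mitochondrial peak, with 1290 to 6953. None of the 399 regions was mitochondrial.

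Sequence was read where a region reached into a promoter window of RefSeq (GRCm38.p6), which runs from 250 bases before to 50 bases after a gene's start. This was the case for 442 of the 8887 other Dex regions (4.97%), so comparisons with them by sequence cover a small part of those. Of the 399 regions, 103 (25.8%) reached into 124 windows of 117 genes. The sequences below show the part of a region that lies before the gene's start, for the 5 strongest regions near a gene end with at least 40 such bases. They are written 5′ to 3′ on the strand of the gene, and capitals mark matches to the motifs searched, listed after them. Msi2 encodes an RNA-binding protein (chr11:88718365-88718527, minus strand), and Pim3 a serine/threonine kinase (chr15:88861944-88862027, plus strand). Ndufs7 encodes a subunit of respiratory complex I (chr10:80249335-80249448, plus strand). Rptor encodes the Raptor subunit of the growth kinase complex mTORC1 (chr11:119602862-119602904, plus strand), and Srsf3 a splicing factor (chr17:29032620-29032659, plus strand).
Msi2: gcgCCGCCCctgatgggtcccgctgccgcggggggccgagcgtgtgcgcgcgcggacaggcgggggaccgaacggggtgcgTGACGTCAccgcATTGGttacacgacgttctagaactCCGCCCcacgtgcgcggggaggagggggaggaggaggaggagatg
Pim3: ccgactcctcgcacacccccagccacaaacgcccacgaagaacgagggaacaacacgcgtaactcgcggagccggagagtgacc
Ndufs7: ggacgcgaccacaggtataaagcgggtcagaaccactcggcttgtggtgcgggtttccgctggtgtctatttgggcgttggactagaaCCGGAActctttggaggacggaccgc
Rptor: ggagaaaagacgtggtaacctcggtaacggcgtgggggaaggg
Srsf3: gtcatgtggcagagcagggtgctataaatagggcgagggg
CG dinucleotides numbered 23 in the 163 bases at Msi2 and 10 in the 84 bases at Pim3, but 1 in the 40 bases at Srsf3. None of the 5 stretches carries the glucocorticoid response element core.

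For comparison, 3 promoters under other Dex regions that carry that core are shown, with the core in capitals. They were chosen, after their values were seen, as protein-coding genes among the strongest such regions. Mt1 encodes the metal-binding protein metallothionein 1 (chr8:94178977-94179025, plus strand), Map3k6 a MAP kinase kinase kinase (chr4:133240619-133240667, plus strand) and Slc10a6 a transporter of sulphated steroids (chr5:103629536-103629584, minus strand).
Mt1: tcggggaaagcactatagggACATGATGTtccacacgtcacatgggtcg
Map3k6: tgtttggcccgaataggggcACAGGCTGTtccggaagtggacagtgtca
Slc10a6: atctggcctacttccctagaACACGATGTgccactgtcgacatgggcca
At these 3 genes the core lay 8, 5 and 9 bp from the centre of the region, and the regions averaged 42.4, 90.1 and 66.7 normalized tags in DEX.

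The motifs were searched on both strands of the whole 300-base windows. The glucocorticoid response element core ACANNNTGT was found in 3 of 124 windows under the 399 regions (2.42%), against 57 of 513 windows under other Dex regions (11.1%) and 6.85% of all 32851 windows. In none of the 3 (Pigc, Gm33009 and Slc25a4) did the core lie inside the called region, whereas 48 of the 58 cores under other Dex regions did. The hexamer AGAACA was in 6.45% of the windows, against 18.3% under other Dex regions and 19.0% of all. The AP-1 site TGANTCA was in 2.42%, against 11.3% and 7.81%.

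Motifs of CpG-rich promoters ran the other way. The GC box GGGCGG was in 71.8% of windows under the 399 regions, against 49.3% under other Dex regions and 35.7% of all windows. The ETS core CCGGAA was in 41.9%, against 28.1% and 14.9%, and the CRE core TGACG in 38.7%, against 30.4% and 20.8%. The CCAAT box was near the background in each, at 39.5%, 35.3% and 37.4%. The windows held a median of 27 CG dinucleotides, against 18 under other Dex regions and 7 over all. A match is a description of the letters and not a site. The overlap of region and window also differed, with a median of 93 bp for the 399 regions and 151 bp for the others.

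**Figure D1:**
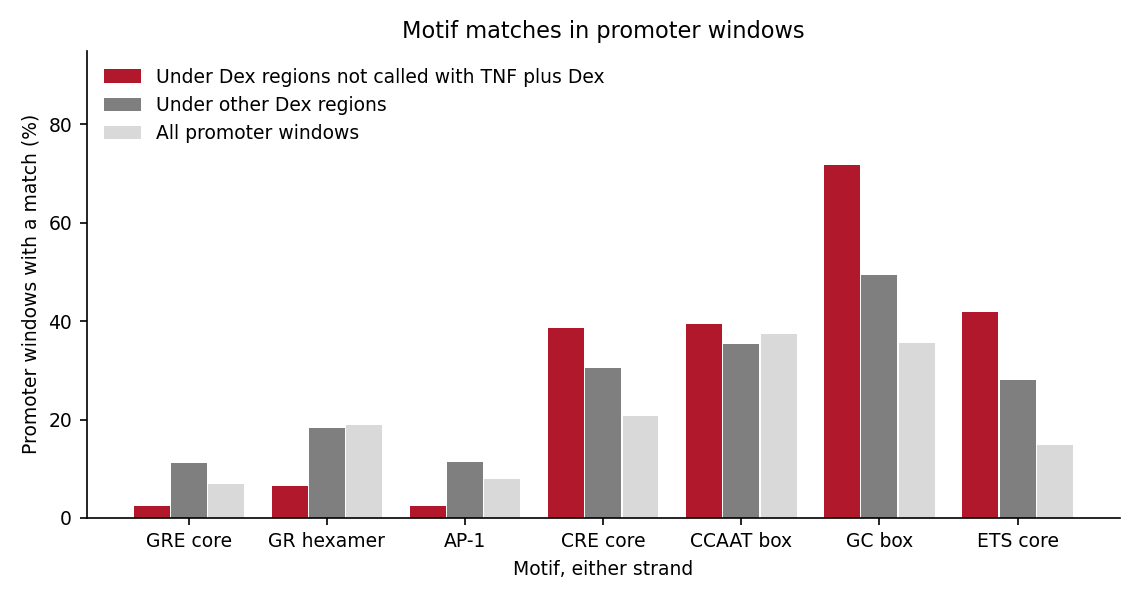
Share of 300-base promoter windows (y axis, %) with a match to each motif (x axis), for windows under the 399 regions (dark red, 124 windows), under other Dex regions (grey, 513) and all windows (light grey, 32851). The glucocorticoid response element (GRE) core, the GR hexamer and the AP-1 site are least frequent under the 399 regions, and the GC box and ETS core are most frequent there.

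Most of the 399 regions were weak in DEX, which the rule fixes in part, so strength is given as a description. Their mean DEX normalized tag count ran from 7.0 to 61.85, with a median of 12.05 and quartiles of 9.8 and 15.6. The other Dex regions had a median of 18.73. Regions just outside the rule were also weak, with a median of 13.1 for the 1446 called in at least 2 DEX and 1 TNFDEX library and 8.7 for the 6661 called in 1 DEX and 0 TNFDEX libraries. Of those 1446, 89.5% had their call in TNFDEX 1, which holds the longest list. With Dex regions split into 5 equal groups by DEX strength, the share of Dex regions with no TNFDEX call was 10.7%, 5.54%, 2.96%, 1.83% and 0.484% from the weakest to the strongest. In the strongest group this left 9 of 1858 regions.

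Few of the 399 regions were called in every DEX library. All 3 DEX libraries called 22 of them, which are 0.389% of the 5658 regions called in all 3. DEX 1 and 2 without DEX 3 called 245 (17.5% of 1401 regions of that pattern), DEX 2 and 3 called 83 (4.99% of 1664) and DEX 1 and 3 called 49 (8.70% of 563). DEX 1 and 2 are the DEX libraries with 1 mitochondrial peak, and TNFDEX has 1 such library. Within the libraries of that kind, 356 of the 7059 regions called in DEX 1 and 2 had no call in TNFDEX 1 (5.04%), and 267 of these belong to the set. Within the other kind, 3552 of the 12955 regions of DEX 3 had no call in TNFDEX 2 and 3 (27.4%), and 154 of these belong to the set. The part of the mitochondrial split in the set was not tested.

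**Figure D2:**
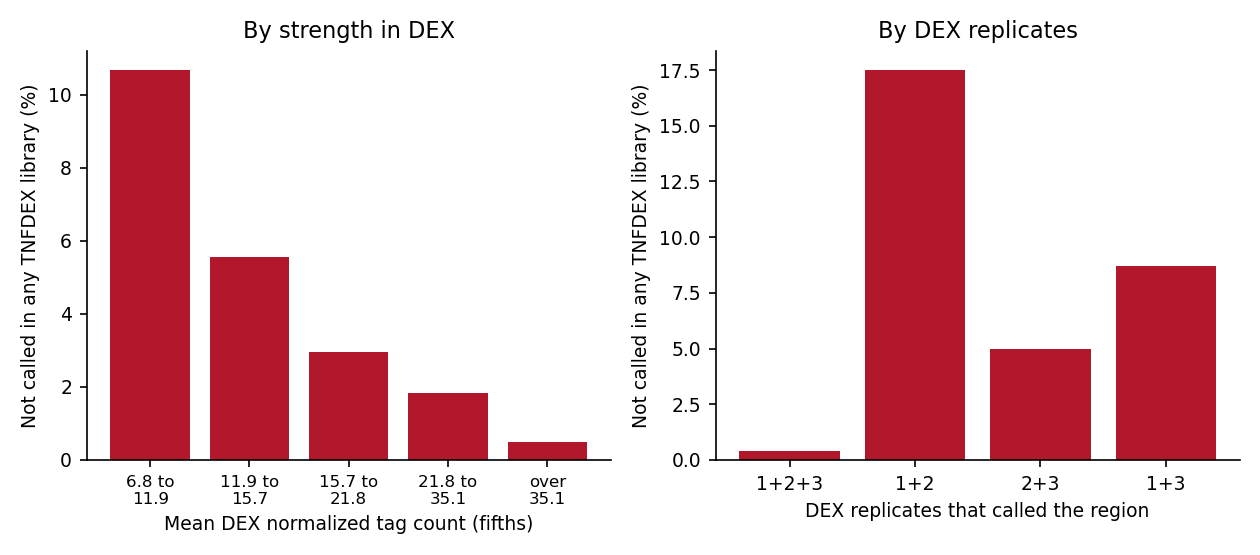
Share of regions called in at least 2 DEX libraries that had no call in any TNFDEX library (y axes, %), in 5 equal groups by mean DEX normalized tag count (left) and by the DEX replicates that called the region (right). The share is 10.7% in the weakest and 0.484% in the strongest group, and 17.5% for regions called in DEX 1 and 2 and not 3.

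The size of the set depended on single libraries. Without TNFDEX 1 it was 1693 regions, and without TNFDEX 2 or 3 it was 420 or 530. Without DEX 1, 2 or 3, with both remaining DEX libraries required, it was 105, 71 or 267. With the same number of strongest peaks from each of the 6 libraries (8641, the length of the shortest list) it was 725.

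The peaks of the set stood out little from their surroundings. In DEX 1, 2 and 3, 83.2%, 84.0% and 89.0% of them were under 8-fold over the surrounding 10000 bp, where the authors required 4-fold. For other Dex regions these shares were 41.7%, 38.7% and 33.2%. The median fold over surroundings in the 3 DEX libraries was 5.86, 5.62 and 5.2, against 9.04, 9.45 and 10.8 at other Dex regions. The median fold over the input was 8.05, 7.09 and 8.37, against 12.1, 13.6 and 16.3. These are the authors' values per peak, and they come from the DEX libraries that the rule used. With peaks at least 8-fold over both the input and the surroundings, 88 regions met the rule.

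The strongest regions of the set were of 2 sorts, those also called without Dex and those called with Dex alone. Of the 15 strongest, 8 were called in at least 1 TNF or NI library, against 44.8% of all Dex regions. DEX 3 did not call 8 of the 15, where it did not call 61.4% of the set and 13.0% of other Dex regions.

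At the top was a region inside Zfp316, a zinc finger gene (chromosome 5, 143253570 to 143253748), with 61.0 and 62.7 in DEX 1 and 2, 29.9 in TNF 1 and 46.9 in NI 2. A region 0.4 kb from Uspl1, which encodes a SUMO protease (chromosome 5, 149184097 to 149184279), had 37.7 and 59.7 in DEX 1 and 2, 46.1 in TNF 1, and 40.1 and 42.5 in NI 1 and 2. A region 0.1 kb from a boundary of Id1, which encodes an inhibitor of basic helix-loop-helix factors (chromosome 2, 152736227 to 152736436), had 40.7 and 52.5 in DEX 1 and 2, 43.6 in TNF 1, and 34.2 and 40.1 in NI 1 and 2. At Uspl1 and Id1 the ranges of DEX and of the libraries without Dex overlapped. All calls at Zfp316, Uspl1 and Id1, and at Rasgrf1, Alyref2, Nptx2 and Ccn2 below, came from libraries with 1 mitochondrial peak.

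A region 29.7 kb from Rasgrf1, a gene for an activator of Ras (chromosome 9, 89879678 to 89879863), had 36.2 and 49.5 in DEX 1 and 2, 18.8 in TNF 1, and 25.3 and 30.0 in NI 1 and 2. A region 0.5 kb from Alyref2, an mRNA export gene (chromosome 1, 171502819 to 171503145), had 30.2 and 34.2 in DEX 1 and 2, 18.8 in TNF 1, and 33.7 and 36.7 in NI 1 and 2. DEX and NI overlapped at Alyref2 and not at Rasgrf1, where both DEX values were above both NI values and TNF 1 was lowest. At a region 0.1 kb from a boundary of Nptx2, which encodes neuronal pentraxin 2 (chromosome 5, 144545859 to 144546074), the values were 29.7 and 33.1 in DEX 1 and 2 against 21.8 and 29.5 in NI 1 and 2. The Nptx2 region had no TNF call.

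Several strong regions were called with Dex alone. A region 5.0 kb from Usp18, whose product removes the ubiquitin-like protein ISG15 and restrains interferon signalling (chromosome 6, 121240799 to 121240976), had 29.7, 38.2 and 40.5 in DEX 1, 2 and 3. It was the strongest of the 7 regions called in all 3 DEX libraries and in no TNF or NI library. The set held 22 regions called in all 3 DEX libraries, so 7 of the 22 had this pattern. Over all 5658 regions called in all 3 DEX libraries, 54.8% had it. The promoter regions of Msi2 (chromosome 11, 88718365 to 88718549) and Pim3 (chromosome 15, 88861821 to 88862027, inside Gm33049) had 40.3 and 37.0, and 41.8 and 33.6, in DEX 2 and 3. A region 32.7 kb from Calml3, a calmodulin-like gene (chromosome 13, 3770108 to 3770306), had 29.7 and 50.5 in DEX 1 and 2. A region inside Fry, which encodes a microtubule-binding protein (chromosome 5, 150333320 to 150333498), had 33.1 and 36.2 in DEX 2 and 3. The nearest TNFDEX peak was 160.5 kb from the Msi2 region, 6.2 kb from Pim3 and 2.5 kb from Usp18. It was 1.4 kb from the Calml3 region and 0.5 kb from the Fry region.

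The other 6 of those 7 were weaker. They lay 14.9 kb from the homeobox gene Dlx3 (25.3, 30.1 and 17.2 in DEX 1, 2 and 3), inside the formin gene Fmn1 (14.4, 16.3 and 17.7) and 0.7 kb from Adm, which encodes the vasodilator peptide adrenomedullin (10.9, 17.3 and 13.4). The rest were nearest to Ccdc91 (12.4, 12.7 and 13.4), the organic anion transporter gene Slco4c1 (7.4, 9.7 and 14.6) and Ttc6 (7.4, 8.7 and 8.2). Beside the Dlx3 region, TNFDEX 1 held a peak of 46.9 at 403 bp. Peaks 410 to 446 bp from that region held 19.8 and 34.2 in DEX 1 and 2. At the other 5 no TNFDEX peak lay within 11 kb.

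**Figure D3:**
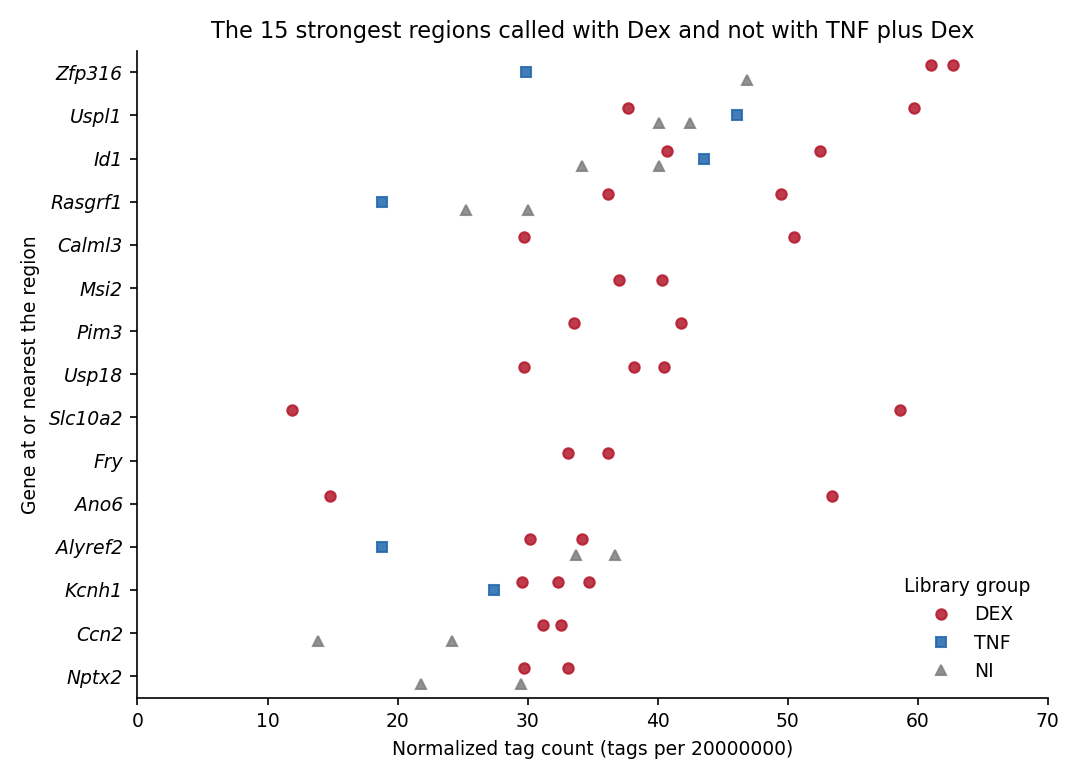
Normalized tag count (x axis, tags per 20000000) of the 15 strongest regions (y axis, gene at or nearest the region) in every DEX (circles), TNF (squares) and NI (triangles) library that called them. A library without a point did not call the region. At Uspl1 and Id1 the libraries without Dex lie among or beside the DEX values, at Alyref2 the NI values do and TNF 1 lies below them, and at 7 regions, from Calml3 to Ano6, no library without Dex has a point.

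Some regions of the set had a TNFDEX peak beside them. The peak caller kept a minimum distance between peaks of 346, 322 and 354 bp in TNFDEX 1, 2 and 3, so peaks closer together than that could not both be listed. In 32 of the 399 regions (8.02%) at least 1 TNFDEX library had a peak closer than that distance, and in 5 all 3 did. Within 500 bp there was a TNFDEX peak at 57 regions (14.3%), and within 50 kb at 320 (80.2%). The median distance was 13810 bp. The other Dex regions hold a TNFDEX call by definition, and no share over other positions was computed. These counts are therefore a description. When a TNFDEX peak within 200 bp counted as a call, 358 regions met the rule.

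Such neighbours were found at 4 of the 15 strongest. Beside the region nearest to Slc10a2, at 179.4 kb from this ileal bile acid transporter gene (chromosome 8, 5284610 to 5284804, 11.9 in DEX 1 and 58.6 in DEX 3), peaks 318 to 366 bp away held 84.2, 18 and 39.1 in TNFDEX 1, 2 and 3, against 30.7 and 41.8 in DEX 1 and 2. Beside the region 56.1 kb from the phospholipid scramblase gene Ano6 (chromosome 15, 96031503 to 96031676, 14.8 in DEX 2 and 53.4 in DEX 3), peaks 321 to 362 bp away held 28.6, 32.8 and 49.3 in TNFDEX 1, 2 and 3. At Ccn2, which encodes a matrix-associated growth factor (chromosome 10, 24595479 to 24595712), the region had 31.2 and 32.6 in DEX 1 and 2 and 13.9 and 24.2 in NI 1 and 2. Peaks 211 to 224 bp from it held 31.9, 9.4 and 22.6 in TNFDEX 1, 2 and 3, against 22.4 in DEX 3. At these 3 loci TNFDEX libraries thus held GR peaks within 0.4 kb. The region inside the potassium channel gene Kcnh1 (chromosome 1, 192454140 to 192454335) had 34.7, 29.6 and 32.3 in DEX 1, 2 and 3 and 27.4 in TNF 1. A peak 415 to 445 bp away held 65.5 and 39.5 in TNFDEX 1 and 3, against 36.2, 51.5 and 41.8 in DEX 1, 2 and 3, so at Kcnh1 the set holds the weaker of a pair of summits.

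Calls in the TNF and NI libraries were not used by the rule. The TNFDEX calls that it used came from cells that also received TNF, so the TNF calls are not independent of it. Of the 399 regions, 216 were called in at least 1 of these 5 libraries (54.1%, against 44.8% of all Dex regions), 73 in at least 2 NI libraries (18.3% of the set, against 16.2% of all Dex regions) and 6 in both TNF libraries (1.5%, against 8.17%). The other 183 were never called without Dex (45.9%, against 55.2%). By DEX libraries, the share called at least once without Dex differed in direction between patterns. For calls in DEX 1 and 2 and not 3 it was 66.5% of the set against 67.5% of other Dex regions. For DEX 2 and 3 it was 26.5% against 34.2%. It was 32.7% against 17.1% for DEX 1 and 3, and 68.2% against 45.1% for all 3. TNF 1 called 133 (33.3% of the set, against 40.9% of all Dex regions) and TNF 2 called 19 (4.76%, against 8.81%). NI 1 called 102 (25.6%, against 17.5%), NI 2 called 118 (29.6%, against 29%) and NI 3 called 11 (2.76%, against 2.93%).

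The share called per library was 19.05% ± 20.2 in TNF (SD, n = 2) and 19.3% ± 14.5 in NI (n = 3), a difference of -0.25 points (exact two-sided permutation p = 1, smallest possible 0.1). Against the other Dex regions, the share called in the 5 libraries differed by -0.64 points on average (exact two-sided sign-flip permutation p = 0.938, over 32 arrangements). Neither difference exceeded the spread between libraries, and neither design can reach 0.05.

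The 2 groups lay apart in the ratio of these shares, which was examined after the shares had been seen. The set's share over that of the other Dex regions was 0.809 and 0.530 in TNF 1 and 2, against 1.49, 1.02 and 0.939 in NI 1, 2 and 3. The groups did not overlap, and the mean log2 ratio differed by -0.78 between TNF and NI (exact two-sided permutation p = 0.1, the smallest that 10 arrangements can give). TNFDEX cells also received TNF, and the rule sorts Dex regions by their TNFDEX calls. The ratio is thus not independent of the rule, and no conclusion is drawn from it. Within the mitochondrial kinds the permutation p was 0.167, again the smallest possible. Among regions in the middle strength range, a mean DEX count of 9.8 to 15.6, the ratios were 0.952 and 1.07 in TNF 1 and 2 and 2.09, 1.33 and 1.29 in NI 1, 2 and 3 (log2 difference -0.60, exact permutation p = 0.2). Among regions called in DEX 3 the groups overlapped, with ratios of 0.475 and 0.645 in TNF 1 and 2 and 0.734, 0.467 and 1.32 in NI 1, 2 and 3 (log2 difference -0.47, exact permutation p = 0.5). Among regions called in DEX 1 and 2 and not 3 they were 0.704 and 0.482 in TNF 1 and 2 and 1.12, 0.881 and 0.715 in NI 1, 2 and 3 (log2 difference -0.61, exact permutation p = 0.2).

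**Figure D4:**
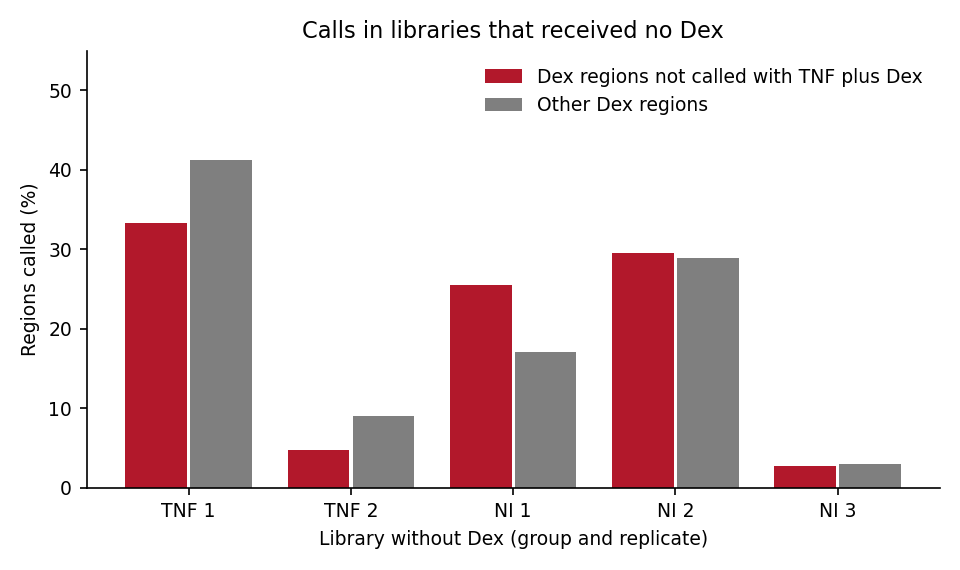
Share of regions called (y axis, %) in each library that received no Dex (x axis), for the 399 regions (dark red) and the other Dex regions (grey). In TNF 1 and 2 the 399 regions are called less often (33.3% and 4.76%, against 41.2% and 8.99%), and in NI 1 more often (25.6%, against 17.1%).

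Levels were compared at regions called in both libraries of a pair. In 97 regions called in DEX 1 and NI 1 the median ratio of DEX over NI was 1.11, against 1.40 at 1439 other Dex regions, and in 115 regions called in DEX 2 and NI 2 it was 1.10, against 1.47 at 2537. TNF 1 over NI 1 had a median ratio of 1.11 at 54 regions of the set, against 2.00 at 1455 other Dex regions. TNF 1 over NI 2 had 1.02 at 66 regions of the set, against 1.34 at 2353 others. The pairs with NI 3 held few regions of the set, with 1.30 for DEX 3 over NI 3 at 6 (2.63 at 228 others) and 1.23 for TNF 2 over NI 3 at 2 (1.22 at 169 others). The DEX values were used by the rule and the ratios share the NI libraries, so they are given with no test.

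The set lay close to genes. Of the 399 regions, 146 (36.6%) had their centre within 1 kb of either boundary of a protein-coding gene, here called a gene end, against 609 of 8887 other Dex regions (6.85%). Inside gene spans lay 61.9%, against 44.2%, and beyond 50 kb of any such gene 11.3%, against 26.8%. The median distance to a gene end was 4282 bp, against 32410 bp. Regions are not replicates of a condition, so no test is given for positions.

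This held for regions with and without calls in the absence of Dex. Near gene ends lay 26.2% of the 183 regions of the set never called without Dex, against 4.23% of such other Dex regions, and 45.4% of the 216 called at least once, against 10.1%. In the middle strength range the shares were 40.5% and 8.60%. By DEX libraries they were 36.4% against 4.52% for calls in all 3, and 41.6% against 19.5% for DEX 1 and 2. They were 32.5% against 6.64% for DEX 2 and 3, and 18.4% against 4.67% for DEX 1 and 3.

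**Figure D5:**
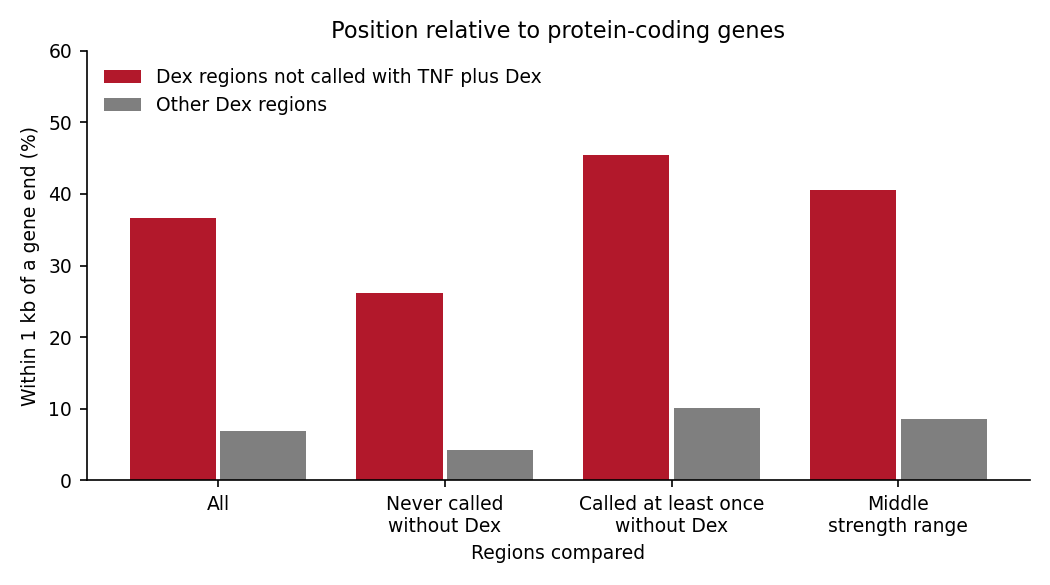
Share of regions centred within 1 kb of an end of a protein-coding gene (y axis, %), for the 399 regions (dark red) and the other Dex regions (grey), over all regions, those never called and those called at least once in a TNF or NI library, and those with a mean DEX normalized tag count of 9.8 to 15.6 (x axis). The share is higher for the 399 regions in each pair, 36.6% against 6.85% over all.

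Regions of the set at gene starts included signalling, metabolic and housekeeping genes. At the start of Junb, a gene for a partner of Fos proteins in AP-1 (chromosome 8, 84978559 to 84978747), the values were 28.8 and 27.5 in DEX 1 and 2, 29.9 in TNF 1, and 24.3 and 26.6 in NI 1 and 2. TNFDEX 3 held a peak of 26.3 at 221 bp from it. At Mat2a, the gene of the enzyme that makes the methyl donor S-adenosylmethionine (chromosome 6, 72439386 to 72439573), the values were 27.3 and 26 in DEX 1 and 2, with no call without Dex. A second Mat2a region, 0.4 kb outside the gene (72439858 to 72440102), had 10.9 and 17.3 in DEX 1 and 2, 16.2 in TNF 1, and 14.9 and 15.5 in NI 1 and 2. Of the Mat2a pair, the weaker region was thus the one called without Dex, at levels within its DEX range. The Ndufs7 region (chromosome 10, 80249335 to 80249532) had 21.8 and 24.0 in DEX 1 and 2 and 23.2 in NI 2. At Junb and Ndufs7 the level without Dex was within or next to the DEX range.

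Ribosomal protein genes gave 4 such regions, at Rpl10a, Rpl41, Rpl13a and Rpl5, and the other Dex regions held 11. Rpl10a (chromosome 17, 28328538 to 28328762) had 18.8 and 21.9 in DEX 1 and 2, 16.7 in TNF 1, and 20.3, 27.1 and 17.9 in NI 1, 2 and 3. It is 1 of 3 regions of the set called in all 3 NI libraries (0.752% of the set, against 2.23% of all Dex regions), and its NI and DEX ranges overlap. These regions were singled out after their values were seen.

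No gene gathered many regions of the set. The 399 regions had 391 different nearest protein-coding genes, and 8 genes were nearest to 2 (Adm, Cdk6, Chac1, Gata3, Mat2a, Rims2, Tatdn1 and Vmn2r96). At Chac1, which encodes a glutathione-degrading enzyme induced by stress, the region at the gene start (chromosome 2, 119351248 to 119351484) had 15.9 and 26.5 in DEX 1 and 2 and 17.8 and 20.8 in NI 1 and 2. The Chac1 region 1.5 kb outside the gene (119355716 to 119356015) had 16.4 and 22.4 in DEX 1 and 2 and no call without Dex. The pair at Adm had no call without Dex, with 14.3 and 9.9 in DEX 2 and 3 at the second, 38.7 kb from the gene. The 2 regions nearest to Gata3 were 326.2 and 577.3 kb away, so the nearest gene is only a name there.

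Genes of the glucocorticoid response and of liver function had a region of the set nearby about as rarely as protein-coding genes at large. Within 50 kb there was one at 1 of 28 genes of the glucocorticoid response, at 0 of 24 that mark hepatocyte identity and at 0 of 23 for metabolism in liver. It was 1 of 24 for the acute phase and 1 of 17 for the circadian clock. The share over all 21900 protein-coding genes was 4.35%, so these counts are near the background. The same lists had a Dex region of any kind at 22, 20, 15, 10 and 13 genes, where 36.5% of all protein-coding genes had one. The glucocorticoid response gene was Errfi1, which encodes an inhibitor of the EGF receptor, with 9.9, 11.2 and 7.3 in DEX 1, 2 and 3 and 11.4 in NI 1. The acute phase gene was the haem carrier gene Hpx, 18.9 kb from a region inside Trim3 (8.9 and 9.7 in DEX 1 and 2, 13.2 in TNF 1, 12.9 and 8.2 in NI 1 and 2), and the clock gene was Tef (7.9 and 7.3 in DEX 1 and 3).

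Among 30 NF-kB and TNF targets, 2 had a region of the set within 50 kb (6.67%, against 4.35% of all protein-coding genes). These were Rela, the gene of the p65 subunit, 13.3 kb from a region inside Sipa1 (10.9 and 9.5 in DEX 1 and 3), and Tnf, 34.6 kb from a region inside Prrc2a (17.8 and 15.8 in DEX 1 and 2, 15.2 in TNF 1, 13.9 in NI 1). Of 20 AP-1 and immediate early genes 3 had one. Besides Junb they were Ier2 (8.9 and 10.2 in DEX 1 and 2, 6.4 and 9.7 in NI 1 and 2) and the ERK phosphatase gene Dusp6, 21.0 kb from its region (20.3 and 34.7 in DEX 1 and 2, 19.8 in TNF 1), beside which TNFDEX 1 held a peak of 36.5 at 235 bp. Of 15 genes of GR and its cofactors, Med1 of the mediator complex had one at 9.5 kb, inside Cdk12 (13.9 and 10.2 in DEX 1 and 2, 15.5 in NI 2).

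Marker genes of other cell types gave 3 of 12 for macrophages (Cd68, Cd14 and Fcgr1), 1 of 14 for neurons (Slc17a7) and 0 of 11 for stromal and endothelial cells. Of these 4, 3 had the region nearest to another gene, such as the Cd68 region inside Eif4a1. Over all 210 list genes 13 had a region of the set within 50 kb (6.19%, against 4.35% of all protein-coding genes). A Dex region of any kind lay that near 61.4% of the list genes, against 36.5% of all. Of the 13, 8 also had a region called in at least 2 TNFDEX libraries within that distance. This is 61.5%, against 51.9% of the 953 protein-coding genes with a region of the set.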

How the data were processed

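The submitters' processing notes name the tools CASAVA 1.8, Bowtie 1.0.0 and HOMER 4.6 and the build mm10. Peaks were called for every library separately with HOMER findPeaks and a common input, per the file headers, with a false discovery rate of 0.001 and a minimum of 4-fold over both that input and the 10000 bp around a peak. How reads were trimmed or duplicates treated is not stated in these sources. The deposited signal is the normalized tag count per 20000000 tags. The deposited ratios are folds over the input and the surroundings, and the deposited fraction (focus ratio), score and p-values are HOMER's own.

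Lists were merged by 1 bp of overlap, and a region took its strongest peak from each library. Tag numbers were counted in windows that differ between libraries, so no count model was run. Shares were tested by exact permutation over libraries. Gene spans and promoter windows came from RefSeq tables of GRCm38.p6 (the assembly that mm10 represents). The table gives gene ends without exons, so exons, introns and UTRs were not separated. Named regions are the 15 strongest, those called in every DEX library and in no TNF or NI library, the strongest called without Dex, genes nearest to most regions, list genes within 50 kb and the strongest at promoters. The set and the gene lists were chosen with earlier results of these data known. The merging and the exact tests were tested on simulated data. Python 3.11.15, numpy 2.4.6, pandas 2.3.3 and matplotlib 3.10.9 were used.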

Additional observations from a re-analysis of the deposited data

How the results depend on the processing

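The set of 399 regions fell to 22 when all 3 DEX libraries were required, to 88 with peaks at least 8-fold over input and surroundings and to 257 with at least 10 normalized tags. It was 725 with the 8641 strongest peaks of each library and 71 to 1693 when 1 library was left out. Within the libraries with 1 mitochondrial peak (2 DEX, 1 TNFDEX) it was 356, and within those with 2 it was 3552, where the only DEX library was DEX 3 and its call alone was required. Other ways of merging, and leaving out mitochondrial peaks, gave 358 to 452. The planned split by presence of mitochondrial peaks was replaced by their number, since all 11 lists hold at least 1. The TNF minus NI difference of -0.25 points became 8.33 with all 3 DEX libraries required and ran from -14.5 to 14.0 without 1 library. With the replicate number as a block it was -8.52, and the log2 ratio was -0.92. The labels do not say that a number pairs libraries. The difference from other Dex regions, -0.64 points, became 2.88 with all 3 DEX libraries, 6.78 with the 8-fold minimum and 4.14 in the middle strength range. It was -4.99 for regions called in DEX 1 and 2 and not 3 and -8.09 for those called in DEX 3, and ran from -2.92 to 1.17 without 1 library. The log2 ratio of -0.78 stayed below 0 in each alternative that gave a value, and ran from -1.09 to -0.48 without 1 library. It had no value with all 3 DEX libraries or the 8-fold minimum, where a library called 0 regions. With all 3 DEX libraries the ratios were 0.957 and 1.59 in TNF 1 and 2. In NI 1, 2 and 3 they were 1.19, 1.30 and 0. With the 8-fold minimum they were 0.992 and 0 in TNF, and 2.77, 1.94 and 0 in NI. In both of these settings the groups overlapped. The cause of these shifts was not tested. The weakest peaks held about 6 normalized tags. A call also required 4-fold over both the input and the surroundings and a minimum distance from other peaks. Binding above about 6 tags could therefore also go uncalled.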

Other observations

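Among the 22 regions called in all 3 DEX libraries, 15 were also called in a TNF or NI library. A region at the start of Rhob, a gene for a small GTPase (chromosome 12, 8499788 to 8500017), had 12.9, 11.7 and 11.6 in DEX 1, 2 and 3, 9.1 in TNF 1, and 8.9 and 12.6 in NI 1 and 2. Near Klf15, which encodes a transcription factor induced by glucocorticoids (chromosome 6, 90492049 to 90492237), a region had 21.4 and 19.8 in DEX 2 and 3 and no call without Dex. A TNFDEX peak lay 0.3 kb from the Rhob region and 16.1 kb from the Klf15 region. Both were named after their values were seen.

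By chromosome, the set made up 7.18% of the Dex regions on chromosome 17 (25 of 348) and 6.65% of those on chromosome 11 (36 of 541). It was 2.02% on chromosome 10 (10 of 496) and 1.02% on the X chromosome (1 of 98), against 4.3% over all. These chromosomes were picked after their values were seen.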
